A study of Homo sapiens with 6 samples.

Results

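The set described is 10 protein-coding genes known to be imprinted, taken from the gene table by symbol: IGF2, DLK1, MEST, PEG10, PEG3, PLAGL1, NDN, MAGEL2, CDKN1C and PHLDA2. Of these, 9 had a row among the 20668 genes of the table, and all 9 of them were among the 16403 genes tested. MAGEL2 had no row, and its 1 annotated transcript was listed at 0 estimated reads in all 6 libraries. RNA was sequenced from SH-SY5Y cells, a human neuroblastoma line, without treatment. There were 3 libraries of cells with DNAJC12 knocked out by CRISPR/Cas9 and 3 of wild-type (WT) cells, made to study what DNAJC12 does in invasion. DNAJC12 encodes a co-chaperone that works with HSP70. The labels do not say whether libraries came from separate cultures or whether the knockout is 1 clone, and they give no guide position. The p-values therefore reflect only how far these libraries scatter, and that scatter may be technical.

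Genomic imprinting leaves a gene expressed mainly from the maternal or the paternal copy. It rests on DNA methylation set in the germ line, and imprinted genes often lie in clusters under a shared control region. Many paternally expressed genes promote fetal growth, several maternally expressed ones restrain it, and a number of both are active in embryonic neural tissue. Counts per gene do not separate the parental copies, so every value here is the total RNA of a gene.

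Library totals ran from 19321842 to 21869659 counts. DNAJC12 itself averaged 5.54 ± 0.601 CPM in the knockout and 21.5 ± 1.505 CPM in WT libraries (SD, n = 3 each), where CPM are counts scaled to library size after TMM normalization; means carry the SD over 3 libraries throughout. Of 12 sympathoadrenal neuroblastoma markers, 11 had a row, each above 1 CPM in every library, and TH had none. Their summed level was 4211 to 4312 CPM in knockout and 4955 to 5179 CPM in WT libraries. The 6 fibroblast markers summed to 365 to 391 CPM in knockout and 304 to 326 CPM in WT libraries. Single markers of both sets moved in both directions. At the threshold given below, 3 of the 6 fibroblast markers rose and 1 fell in the knockout. Of the 11 neuroblastoma markers, 3 rose and 6 fell, where 14.5% of all genes tested rose and 11.5% fell. The 5 Schwann or melanocyte markers with a row, which lack SOX10, summed to 16.2 to 17.4 CPM in knockout and 19.2 to 22.7 CPM in WT libraries. The 3 epithelial markers with a row of 5 summed to 1.91 to 2.14 CPM in knockout and 1.64 to 3.35 CPM in WT libraries, and the 2 blood markers with a row of 4 to 0.722 to 0.9795 CPM in knockout and 0.533 to 1.32 CPM in WT libraries. None of 6 markers of trophoblast and yolk sac, where several imprinted genes are high, had a row. The part of these differences in the results was not tested. In bulk RNA, fewer cells of a type and less RNA per cell cannot be told apart.

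Promoter sequences are shown for genes whose start sites bear on the results. RefSeq (GRCh38.p14) listed 12 promoters for 4 of the 10 genes, each from 250 bases before to 50 bases after a start site and written 5′ to 3′. Capitals mark the letters TGCCGC on either strand, the core motif of the imprint-keeping zinc-finger protein ZFP57; where matches on both strands overlap, the capitals run on. A match was present in 16.7% of 35116 listed promoters of that length. The pair of MEST promoters, chosen from 5 listed, belongs to the start groups that held most of its estimated reads, and the PLAGL1 promoter to the start group with the highest mean. NDN and MAGEL2 are neighbours on chromosome 15, of which NDN was measured and MAGEL2 was listed at 0.

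MEST chr7:130491808-130492107 (+ strand): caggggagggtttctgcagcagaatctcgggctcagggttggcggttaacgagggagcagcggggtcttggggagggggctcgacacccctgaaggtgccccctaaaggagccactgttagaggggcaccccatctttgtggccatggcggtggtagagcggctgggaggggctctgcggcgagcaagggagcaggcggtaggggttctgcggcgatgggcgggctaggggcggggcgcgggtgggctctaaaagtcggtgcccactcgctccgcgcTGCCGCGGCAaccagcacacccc

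MEST chr7:130491079-130491378 (+ strand): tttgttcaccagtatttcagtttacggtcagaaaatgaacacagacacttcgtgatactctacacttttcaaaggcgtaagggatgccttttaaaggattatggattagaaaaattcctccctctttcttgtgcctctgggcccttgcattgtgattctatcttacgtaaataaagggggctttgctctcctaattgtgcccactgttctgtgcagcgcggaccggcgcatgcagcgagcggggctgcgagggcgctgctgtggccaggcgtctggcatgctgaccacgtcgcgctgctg

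PLAGL1 chr6:144008210-144008509 (- strand): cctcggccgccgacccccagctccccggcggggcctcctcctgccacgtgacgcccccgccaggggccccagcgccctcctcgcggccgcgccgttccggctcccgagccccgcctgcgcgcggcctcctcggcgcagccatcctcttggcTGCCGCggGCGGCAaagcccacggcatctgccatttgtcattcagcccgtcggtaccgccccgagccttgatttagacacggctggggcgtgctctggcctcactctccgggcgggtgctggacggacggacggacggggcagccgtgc

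NDN chr15:23687256-23687555 (- strand): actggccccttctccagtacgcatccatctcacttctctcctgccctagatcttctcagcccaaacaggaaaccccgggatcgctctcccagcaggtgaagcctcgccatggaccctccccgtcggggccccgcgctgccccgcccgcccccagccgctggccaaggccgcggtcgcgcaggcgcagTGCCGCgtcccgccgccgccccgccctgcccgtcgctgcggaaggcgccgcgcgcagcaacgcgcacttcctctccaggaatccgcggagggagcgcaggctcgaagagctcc

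MAGEL2 chr15:23647818-23648117 (- strand): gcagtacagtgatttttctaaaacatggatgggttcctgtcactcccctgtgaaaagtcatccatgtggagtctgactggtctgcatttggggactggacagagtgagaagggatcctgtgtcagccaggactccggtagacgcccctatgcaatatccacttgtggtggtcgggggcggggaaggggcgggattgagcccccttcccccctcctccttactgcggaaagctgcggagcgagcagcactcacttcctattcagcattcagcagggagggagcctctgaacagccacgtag

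The MEST promoter printed first held 2 matches and 22 CG pairs, and the one printed second 0 matches and 16 CG pairs. Of the other 3 MEST promoters, one that overlaps the first (start site 130492085) held 3 matches and 25 CG pairs, and those at 130486175 and 130486347 held 1 match each, with 13 and 22 CG pairs. The PLAGL1 promoter held 2 matches and 39 CG pairs, more CG pairs than 91.3% of listed promoters. NDN held 1 match and 35 CG pairs and MAGEL2 0 matches and 9 CG pairs, where the median promoter held 14. A match describes the letters of the window and says nothing of binding.

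The comparison asked how far the knockout and WT libraries differed in these genes. MEST was far higher in the knockout libraries, IGF2 and PEG10 were far lower, and CDKN1C, PEG3, PLAGL1 and NDN changed by less. Of the 9 genes tested, 2 rose, 5 fell, and DLK1 and PHLDA2 missed the threshold (edgeR quasi-likelihood test, Benjamini-Hochberg adjusted p under 0.05 over all genes). Across all genes tested, 26.0% passed, 14.5% with a rise and 11.5% with a fall. The median log2 fold change of the 9 genes was -0.48, beside 9.19e-06 over all genes tested. The median size of change on that scale, sign left aside, was 0.58, beside 0.22 over all genes. A called change of at least 2-fold was found for 3 of the 9, and for 9.24% of all genes. Knockout and WT values did not overlap for 8 of the 9, nor for 41.7% of all genes. The genes were chosen with earlier results of these data known, so these shares are not read as a trait of imprinted genes. Changes below are log2 fold changes of knockout over WT ± SE, with 3 libraries per group.

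**Figure D1:**
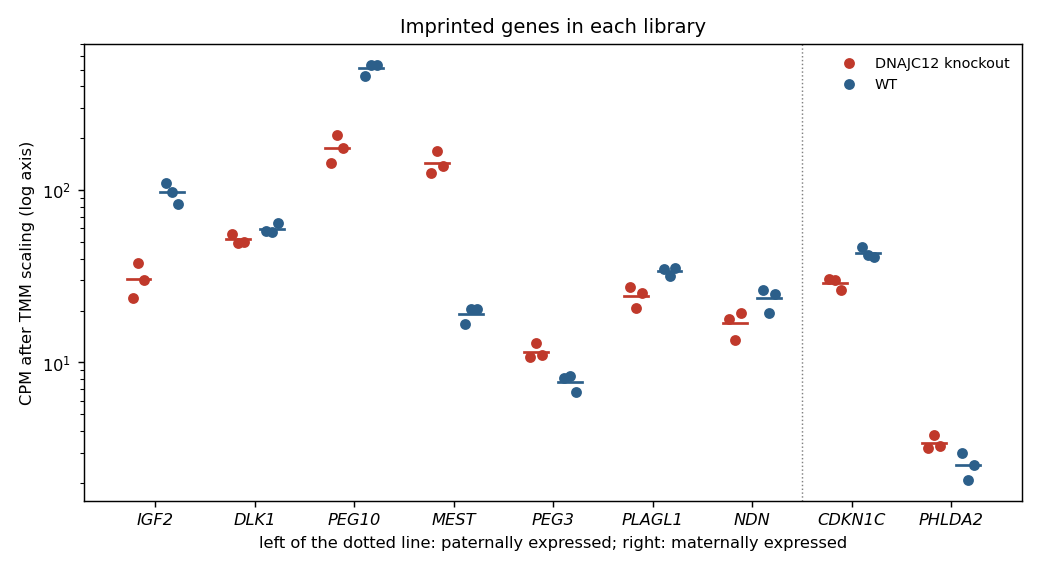
Level of 9 imprinted genes in each library in CPM after TMM scaling (log axis), with knockout libraries in red on the left, WT in blue on the right, and bars for the means of 3 libraries. MEST lies far higher and IGF2 and PEG10 far lower in knockout than in WT libraries, and NDN is the 1 gene of the 9 whose groups overlap.

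The paternally expressed signalling genes are IGF2 and DLK1. IGF2, the insulin-like growth factor that drives fetal growth, had 23.6, 37.9 and 29.9 CPM in the knockout libraries, against 110.4, 97.9 and 83.3 CPM in the WT libraries. Every knockout value lay below every WT value, with knockout replicate 2 the nearest. IGF2 fell by 1.67 (SE 0.16, edgeR adjusted p = 2.14e-05), a 3.19-fold lower level. DLK1, a membrane protein with EGF repeats that acts on Notch signalling, had 55.7, 49.4 and 49.999 CPM in the knockout libraries, against 58.1, 56.8 and 64.4 CPM in the WT libraries. The groups did not overlap, but the highest knockout and lowest WT library lay close together. The difference of -0.21 ± 0.08 missed the threshold with all libraries (edgeR adjusted p = 0.0981). It passed without knockout replicate 1 (-0.27, edgeR adjusted p = 0.0399) and when scaled by library size only (-0.26, edgeR adjusted p = 0.0411).

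MEST and PEG10 are paternally expressed genes of chromosome 7. MEST, which encodes a protein of the alpha/beta hydrolase fold, had 126, 168 and 138 CPM in the knockout libraries, against 16.8, 20.4 and 20.4 CPM in the WT libraries. The lowest knockout library was several times above the highest WT library. MEST rose by 2.91 ± 0.13 (edgeR adjusted p = 7.87e-08), a 7.51-fold higher level. PEG10, derived from a retrotransposon and needed for the mouse placenta, had 143, 209 and 176 CPM in the knockout libraries, against 458, 533 and 533 CPM in the WT libraries. The groups stood well apart, and the coefficient of variation was 18.5% in the knockout and 8.55% in the WT libraries. PEG10 fell by 1.53 (SE 0.12, edgeR adjusted p = 6.10e-06), a 2.89-fold lower level.

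The paternally expressed zinc-finger genes moved in opposite directions. PEG3, a zinc-finger protein tied to growth in the mouse, had 10.7, 12.95 and 11.1 CPM in the knockout libraries, against 8.09, 8.37 and 6.698 CPM in the WT libraries. All knockout values lay above the WT values, and PEG3 rose by 0.58 ± 0.14 (edgeR adjusted p = 0.0118). PLAGL1, a transcription factor that in the mouse acts on other imprinted genes, had 27.3, 20.7 and 25.1 CPM in the knockout libraries, against 34.7, 31.7 and 35.3 CPM in the WT libraries. All knockout values lay below the WT values, and PLAGL1 fell by 0.48 (SE 0.11, edgeR adjusted p = 0.0108). With length-corrected counts built from the transcript files, the change was 0.47 for PEG3 (edgeR adjusted p = 0.21) and -0.405 for PLAGL1 (edgeR adjusted p = 0.0824), and neither passed.

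NDN, of the Prader-Willi region, encodes the MAGE-family protein necdin and is paternally expressed. It had 17.87, 13.58 and 19.45 CPM in the knockout libraries, against 26.44, 19.44 and 24.95 CPM in the WT libraries. The highest knockout library lay just above the lowest WT library, so the groups overlapped. NDN fell by 0.48 (SE 0.16, edgeR adjusted p = 0.0459). It missed the threshold without knockout replicate 2 (edgeR adjusted p = 0.0985), WT replicate 1 (0.16) or WT replicate 3 (0.143), and with counts from the transcript files, summed (0.076) or length-corrected (0.0988).

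The maternally expressed genes are CDKN1C and PHLDA2, both of chromosome 11. CDKN1C, the cyclin-dependent kinase inhibitor p57, had 30.6, 30.2 and 26.4 CPM in the knockout libraries, against 47.1, 42.2 and 40.96 CPM in the WT libraries. The groups were well separated, and CDKN1C fell by 0.58 (SE 0.097, edgeR adjusted p = 0.0012). PHLDA2, a pleckstrin-homology protein that limits placental growth in the mouse, was the lowest of the 9 genes in CPM, with 3.21, 3.804 and 3.26 CPM in the knockout libraries, against 3.002, 2.08 and 2.56 CPM in the WT libraries. These rest on 63, 79 and 70 counts in the knockout and 62, 41 and 50 counts in the WT libraries. The knockout values lay above the WT values, and the difference of 0.43 ± 0.24 missed the threshold (edgeR adjusted p = 0.235).

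Levels were compared between genes per length, in TPM summed over each gene's transcripts (mean ± SD, n = 3). In the knockout libraries the highest was MEST at 81.8 ± 12.5 TPM, followed by PEG10 at 36.98 ± 7.16, DLK1 at 35.8 ± 2.5 and CDKN1C at 32.2 ± 2.32 TPM. The ranges of the last 3 overlapped. Next came PLAGL1 at 15.2 ± 2.18, NDN at 13.3 ± 2.27, IGF2 at 9.05 ± 2.14 and PHLDA2 at 6.64 ± 0.731 TPM, each overlapping the next, and last PEG3 at 2.06 ± 0.0334 TPM. In the WT libraries PEG10 at 112 ± 8.602 TPM led, followed by CDKN1C at 49.98 ± 3.93, DLK1 at 42.9 ± 1.94 and IGF2 at 30.1 ± 4.56 TPM. None of these 4 overlapped. Next came PLAGL1 at 21.1 ± 1.69 and NDN at 19.3 ± 2.93 TPM, which overlapped, then MEST at 12.3 ± 1.95, PHLDA2 at 5.17 ± 0.916 and PEG3 at 1.56 ± 0.517 TPM. MEST was thus the highest of the 9 genes in the knockout libraries and the seventh in the WT libraries.

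The transcript files were used to ask whether the changes lay at particular start sites, as groups of transcripts whose starts lie within 500 bases of the next. MEST (ENSG00000106484) lies on the plus strand of chromosome 7 from 130486171 to 130506465 in GRCh38. Its downstream start group, from 130492058 to 130492472, held 1338, 2143 and 1696 estimated reads in the knockout and 346, 212 and 140 in the WT libraries. The upstream group, from 130491329 to 130491333, held 1041, 1243 and 1123 estimated reads in the knockout and 0, 163 and 205 in the WT libraries. Estimated reads at both were higher in every knockout library than in any WT library. The downstream share was 57.7% ± 3.63 in the knockout and 62.6% ± 33.6 in WT libraries (SD, n = 3; exact two-sided permutation p = 1), where 3 against 3 libraries cannot give a p below 0.1. Shares in WT ran from 35.2% to 100%, so a shift between the starts was not detectable.

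**Figure D2:**
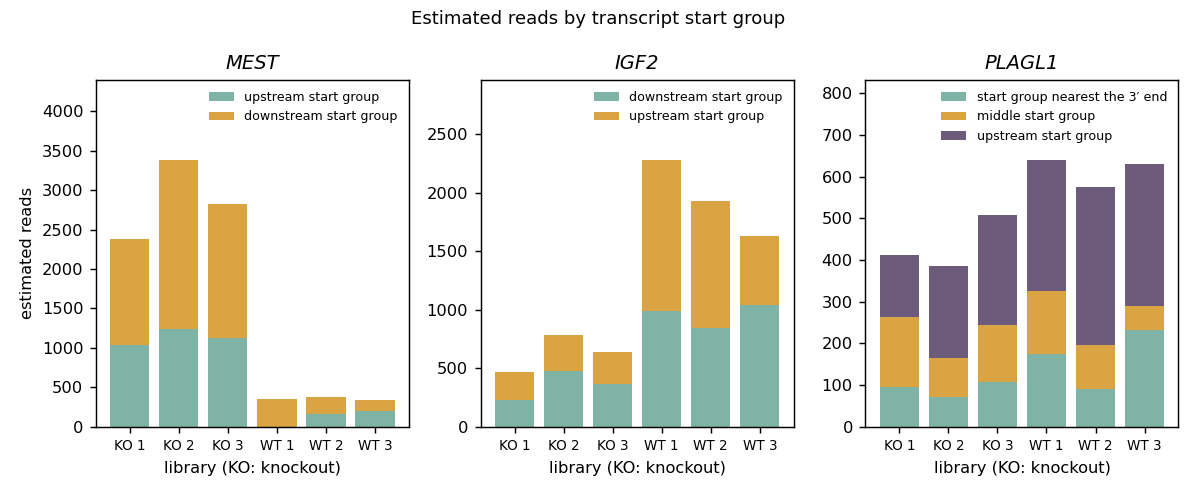
Estimated reads of MEST, IGF2 and PLAGL1 in each library, stacked by transcript start group, for groups with at least 10% of a gene's reads in 1 genotype. The MEST bars are taller and the IGF2 bars shorter in the knockout libraries, and the MEST split differs widely among the WT libraries.

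IGF2 (ENSG00000167244) lies on the minus strand of chromosome 11 from 2129112 to 2149603. Its start group from 2138974 to 2139389 held 238, 312 and 276 estimated reads in the knockout and 1292, 1084 and 585 in the WT libraries. The group from 2137287 to 2137305 held 226, 474 and 366 estimated reads in the knockout and 989, 841 and 1044 in the WT libraries. Both were lower in every knockout library than in any WT library, and the share of the second was 55.4% ± 5.99 in the knockout and 50.3% ± 11.9 in WT libraries (SD, n = 3; exact two-sided permutation p = 0.6). For PLAGL1 the group from 144008118 to 144008823 on chromosome 6 held 44.2% ± 10.8 in the knockout and 52.3% ± 7.52 in WT libraries (SD, n = 3; exact two-sided permutation p = 0.5) of its estimated reads. The group from 143968950 to 143968978 held 168, 93 and 139 estimated reads in the knockout and 151, 106 and 57 in the WT libraries, a share of 27.7% ± 7.095 in the knockout and 15.8% ± 6.89 in WT libraries (SD, n = 3; exact two-sided permutation p = 0.2). The group at 143964868 held 95, 71 and 106 estimated reads in the knockout and 175, 91 and 232 in the WT libraries, a share of 18.8% ± 1.95 in the knockout and 24.7% ± 9.795 in WT libraries (SD, n = 3; exact two-sided permutation p = 0.4). The knockout and WT reads of the middle group overlapped, with a mean of 133 in the knockout and 104 in WT libraries. Those of the group at 143964868 also overlapped. The group from 144008118 to 144008823 held 150, 222 and 264 estimated reads in the knockout and 315, 379 and 341 in the WT libraries. Its reads were lower in every knockout library than in any WT library. For PEG3 the share of the group from 56840661 to 56840728 on chromosome 19 ran from 5.28% to 100% over the libraries, so it gave no stable split. PEG10, DLK1, NDN and PHLDA2 had 1 start group each.

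Other imprinted genes were read from a list of 83, in which the imprinting of several is limited to some tissues or debated. Of these, 57 had a row and 52 were tested; 9 rose, 12 fell and 31 missed the threshold. That is 40.4% called, beside 26.0% of all genes, with a median log2 fold change of 0.01. The list was drawn up with earlier results of these data known, so the share is not read as a trait of imprinted genes. MEG3, MEG8, ZIM2 and INS-IGF2 had no row, and HYMAI and MESTIT1 were too low to be tested.

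**Figure D3:**
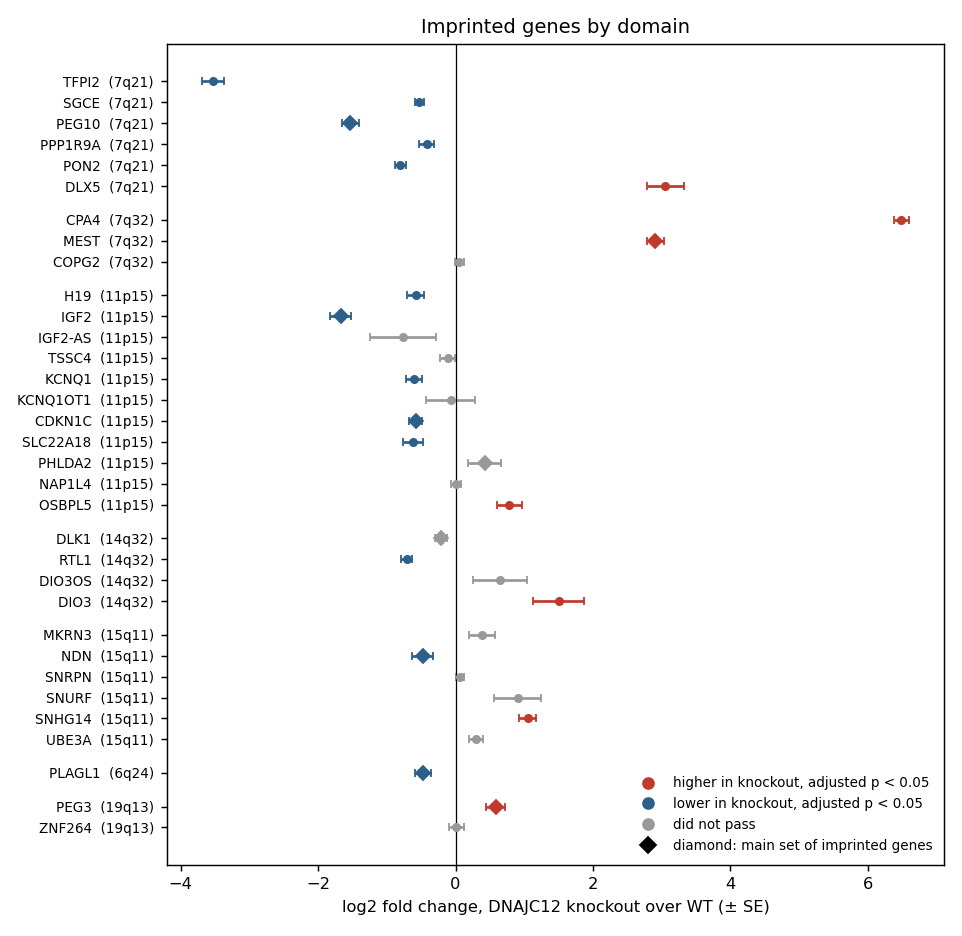
Log2 fold change of knockout over WT with its SE (3 libraries per group) for tested imprinted genes of 7 domains, in red for rises, blue for falls and grey for genes that missed the threshold, with diamonds for the 9 genes described first. In 7q21 each gene but DLX5 lies below 0, in 7q32 CPA4 and MEST lie far above 0, and 11p15 holds more falls than rises.

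Listed genes within 1 Mb of PEG10 were lower in the knockout libraries, as PEG10 was. SGCE, a sarcoglycan gene that starts beside PEG10 and runs the other way, had 61.7, 63.9 and 58.1 CPM in the knockout libraries, against 89.2, 87.95 and 87.1 CPM in the WT libraries, and it fell by 0.53 (SE 0.07, edgeR adjusted p = 0.000259). The paraoxonase gene PON2 fell by 0.802 (SE 0.09, edgeR adjusted p = 5.09e-05). TFPI2, which encodes a protease inhibitor, averaged 137 ± 24.4 CPM in the knockout and 1585 ± 322 CPM in WT libraries and fell by 3.53 (SE 0.16, edgeR adjusted p = 1.30e-07). The neurabin gene PPP1R9A fell by 0.42 (SE 0.11, edgeR adjusted p = 0.0176), but missed the threshold without knockout replicate 3 (edgeR adjusted p = 0.0815), WT replicate 1 (0.0802) or WT replicate 2 (0.0636), and with length-corrected counts (0.0849). Of all 9 other genes tested within 1 Mb, 6 fell and 3 missed the threshold, where 11.5% of all genes fell, and the median log2 fold change was -0.42. Of the 5 among them that are not listed, 2 fell and 3 missed the threshold.

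Near MEST the annotated genes tested included CPA4 and COPG2. CPA4, a carboxypeptidase gene 162 kb away, averaged 167 ± 12.2 CPM in the knockout and 1.85 ± 0.122 CPM in WT libraries and rose by 6.49 ± 0.11 (edgeR adjusted p = 3.66e-10). COPG2, the neighbouring coat-protein gene, averaged 116 ± 4.37 CPM in the knockout and 112 ± 4.099 CPM in WT libraries (0.05 ± 0.07, edgeR adjusted p = 0.609). Of 16 other tested genes that GENCODE 29 places within 1 Mb, 2 rose, 1 fell and 13 missed the threshold, beside 26.0% called among all genes. COPG2IT1, a transcript named for the COPG2 locus, is not placed by that annotation and not in the count. Picked after its values were seen, it rose in the knockout libraries (4.11 ± 0.38, edgeR adjusted p = 1.87e-05).

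Of the 11 imprinted genes tested in 11p15, from the main set or the list, IGF2, CDKN1C, H19, KCNQ1 and SLC22A18 fell and OSBPL5 rose. PHLDA2, KCNQ1OT1, IGF2-AS, TSSC4 and NAP1L4 missed the threshold. Over all genes tested, 14.5% rose and 11.5% fell. Of 12 tested genes within 1 Mb of IGF2 that lie outside the set and the list, 3 rose and 2 fell. H19, a maternally expressed non-coding RNA that shares enhancers with IGF2, had 466, 711 and 579 CPM in the knockout libraries, against 912, 859 and 857 CPM in the WT libraries, and it fell by 0.58 (SE 0.12, edgeR adjusted p = 0.00497). For H19, as for IGF2, PEG10 and MEST, knockout replicate 1 was the lowest and replicate 2 the highest knockout library. The potassium channel gene KCNQ1 fell by 0.605 (SE 0.12, edgeR adjusted p = 0.00393) and the transporter gene SLC22A18 fell by 0.61 (SE 0.15, edgeR adjusted p = 0.0109). OSBPL5, of the oxysterol-binding protein family, rose by 0.78 ± 0.19 (edgeR adjusted p = 0.00999). SLC22A18 missed the threshold without WT replicate 3 (edgeR adjusted p = 0.0509), and OSBPL5 without knockout replicate 3 (edgeR adjusted p = 0.0527). With length-corrected counts both missed it (edgeR adjusted p = 0.0523 for SLC22A18 and 0.0558 for OSBPL5). KCNQ1OT1, the antisense RNA of the CDKN1C domain, averaged 2.68 ± 0.859 CPM in the knockout and 2.796 ± 1.23 CPM in WT libraries (-0.07 ± 0.36, edgeR adjusted p = 0.917). IGF2-AS averaged 0.3696 ± 0.184 CPM in the knockout and 0.635 ± 0.0711 CPM in WT libraries (-0.77 ± 0.48, edgeR adjusted p = 0.283). TSSC4 averaged 42.2 ± 5.89 CPM in the knockout and 45.7 ± 3.64 CPM in WT libraries (-0.12 ± 0.11, edgeR adjusted p = 0.499), and NAP1L4, of the nucleosome assembly protein family, 159.9 ± 9.88 CPM in the knockout and 159.6 ± 7.77 CPM in WT libraries (0.002 ± 0.07, edgeR adjusted p = 0.988). IGF2R, the receptor that clears IGF2 and lies on chromosome 6, fell by 0.199 (SE 0.06, edgeR adjusted p = 0.0438), and it missed the threshold without knockout replicate 1 (edgeR adjusted p = 0.0715), knockout replicate 3 (0.166), WT replicate 1 (0.125) or WT replicate 2 (0.179). Reads of overlapping antisense pairs can be told apart only if counting used strand, and no source used here gives that setting.

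Around DLK1, in 14q32, RTL1, a retrotransposon-derived gene needed for the mouse placenta, had 116, 123 and 130.3 CPM in the knockout libraries, against 215, 203 and 187 CPM in the WT libraries. RTL1 fell by 0.71 (SE 0.07, edgeR adjusted p = 4.72e-05). DIO3, the deiodinase that inactivates thyroid hormone, had 31, 52 and 38 counts in the knockout and 10, 17 and 14 counts in the WT libraries, and it rose by 1.5005 ± 0.37 (edgeR adjusted p = 0.0128). DIO3 missed the threshold without knockout replicate 2 (edgeR adjusted p = 0.0517) or WT replicate 1 (0.0516), and its change was 3.52 on counts summed from the transcript files. DIO3OS, its antisense neighbour, averaged 0.846 ± 0.203 CPM in the knockout and 0.535 ± 0.0656 CPM in WT libraries (0.65 ± 0.39, edgeR adjusted p = 0.267).

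Around NDN, in 15q11, SNHG14, the paternally expressed host of small nucleolar RNAs, had 51.8, 61.7 and 55.2 CPM in the knockout libraries, against 29.8, 29.1 and 22.6 CPM in the WT libraries. SNHG14 rose by 1.05 ± 0.12 (edgeR adjusted p = 7.77e-05), but with length-corrected counts the change was 0.501 and missed the threshold (edgeR adjusted p = 0.245). SNRPN, which encodes a splicing protein, averaged 113 ± 3.55 CPM in the knockout and 108 ± 1.73 CPM in WT libraries (0.06 ± 0.06, edgeR adjusted p = 0.516), and SNURF, which shares its transcripts, 2.57 ± 0.948 CPM in the knockout and 1.37 ± 0.187 CPM in WT libraries (0.903 ± 0.34, edgeR adjusted p = 0.0766). SNURF passed without knockout replicate 3 (edgeR adjusted p = 0.0487) and with length-corrected counts (1.72, edgeR adjusted p = 0.0458). UBE3A, a ubiquitin ligase gene maternally expressed in neurons, averaged 66.7 ± 8.69 CPM in the knockout and 54.4 ± 2.77 CPM in WT libraries (0.29 ± 0.101, edgeR adjusted p = 0.0559), and passed without knockout replicate 1 (edgeR adjusted p = 0.0032), with a filter of 1 CPM in 3 libraries (edgeR adjusted p = 0.0491) and by DESeq2 (adjusted p = 0.0358). MKRN3, a zinc-finger gene, averaged 5.08 ± 0.677 CPM in the knockout and 3.89 ± 0.233 CPM in WT libraries (0.38 ± 0.19, edgeR adjusted p = 0.171).

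**Figure D4:**
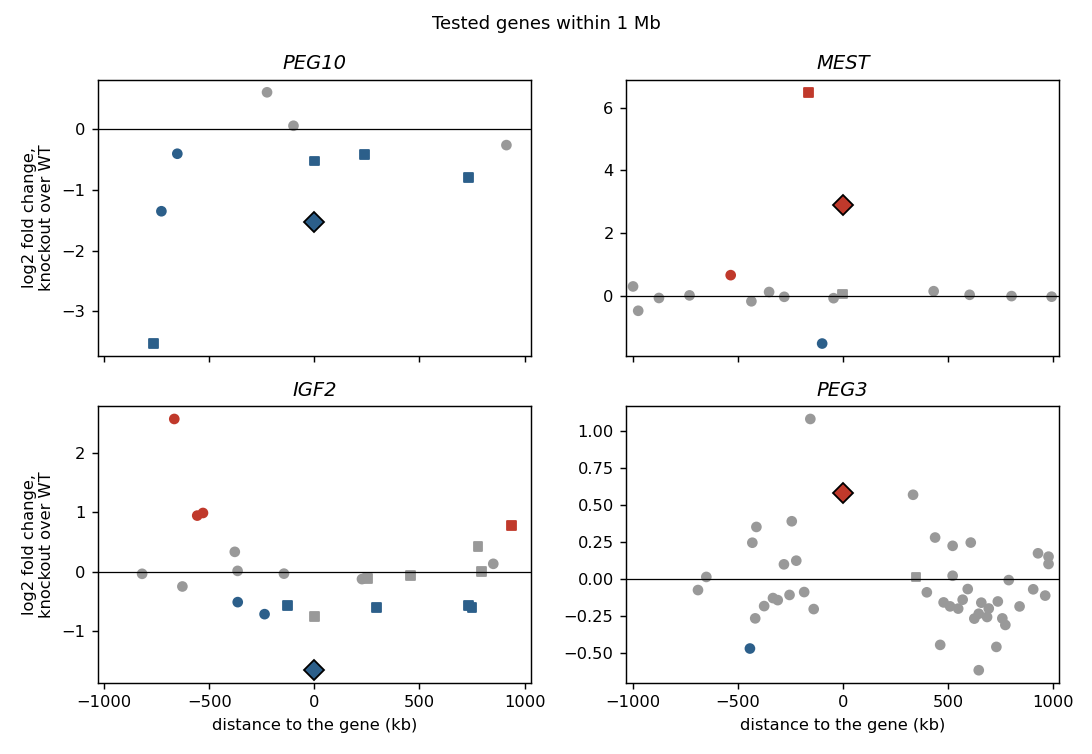
Log2 fold change of knockout over WT for genes tested within 1 Mb of PEG10, MEST, IGF2 and PEG3, against distance in kb, with the named gene as a black-edged diamond, listed imprinted genes as squares and other genes as circles, in red for rises, blue for falls and grey for genes that missed the threshold. Around PEG3 45 of 46 and around MEST 13 of 16 other genes are grey, where 26.0% of all genes tested are called. Around PEG10 6 of 9 other genes are blue, and 2 of the 5 circles, where 11.5% of all genes tested fall.

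Counts within 1 Mb are of genes that GENCODE 29 places there, beside 26.0% of all genes called, 14.5% with a rise and 11.5% with a fall. Around PEG3, 1 of 46 other genes fell and none rose; the listed zinc-finger gene ZNF264 averaged 28.1 ± 3.62 CPM in the knockout and 27.9 ± 1.598 CPM in WT libraries (0.01 ± 0.11, edgeR adjusted p = 0.962). Around PLAGL1, 1 of 10 rose and 2 fell. Around IGF2, 4 of 22 rose and 6 fell, the falls including CDKN1C, H19, KCNQ1 and SLC22A18. Around DLK1, 2 of 12 rose and 3 fell, and around NDN 2 of 6 rose. The windows of IGF2, CDKN1C and PHLDA2 share genes. The small counts around PEG10, MEST, IGF2, PLAGL1, DLK1 and NDN are not read as differing from genes at large. How the neighbourhoods differ was not tested.

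Away from these genes, the homeobox gene DLX5 of 7q21 rose by 3.05 ± 0.27 (edgeR adjusted p = 1.29e-05) and the zinc-finger gene GLIS3 rose by 2.55 ± 0.23 (edgeR adjusted p = 1.50e-05). The potassium channel gene KCNK9 rose by 3.88 ± 0.57 (edgeR adjusted p = 0.000522), with 33, 40 and 23 counts in the knockout and 1, 1 and 4 counts in the WT libraries, and its change was 4.81 without WT replicate 3. DDC, the decarboxylase of dopamine synthesis, fell by 1.88 (SE 0.15, edgeR adjusted p = 7.66e-06). The chemerin receptor gene GPR1, named CMKLR2 in the table, fell by 1.997 (SE 0.33, edgeR adjusted p = 0.00119). The GPR1 values rest on 12, 14 and 11 counts in the knockout and 41, 49 and 54 counts in the WT libraries. GNAS, which encodes a stimulatory G protein subunit, averaged 2315 ± 118 CPM in the knockout and 1822 ± 67.3 CPM in WT libraries and rose by 0.35 ± 0.06 (edgeR adjusted p = 0.00112).

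Genes listed for imprint keeping and DNA methylation were seldom called. The list, called imprint-keeping genes for short, also holds genes that act in demethylation, such as TET1 and KDM1A. It was drawn up with earlier results of these data known, so the share called is not read as a trait of such genes. Of 44 listed, 35 were tested, 0 rose, 1 fell and 34 missed the threshold by edgeR, so 2.86% were called, beside 26.0% of all genes. At an unadjusted p under 0.05 there were 7 of the 35, and the share of all genes at that cut was not counted. Among the 35, limma-voom called 1 rise and 1 fall, with 4346 calls over all genes. DESeq2 called 0 rises and 2 falls, with 4419 calls over all genes. DNMT3A, a de novo DNA methyltransferase, had 189, 187 and 175 CPM in the knockout libraries, against 221, 221 and 209 CPM in the WT libraries. DNMT3A fell by 0.24 (SE 0.06, edgeR adjusted p = 0.017), but missed the threshold without knockout replicate 3 (edgeR adjusted p = 0.12), WT replicate 1 (0.0708) or WT replicate 2 (0.0751), and with length-corrected counts (0.466). Next by p came the histone demethylase gene KDM1A (0.17 ± 0.06, edgeR adjusted p = 0.0572), MBD3 of the methyl-binding family (-0.22 ± 0.08, edgeR adjusted p = 0.0583), the 5-methylcytosine oxidase gene TET1 (-0.47 ± 0.17, edgeR adjusted p = 0.0757) and CTCF, the insulator protein that binds between IGF2 and H19 (0.18 ± 0.07, edgeR adjusted p = 0.0803). KDM1A passed without knockout replicate 1 (edgeR adjusted p = 0.0344), MBD3 without WT replicate 1 (0.0313) and TET1 without knockout replicate 2 (0.0108). KDM1A also passed by limma-voom (adjusted p = 0.0493) and with the 1 CPM filter (edgeR adjusted p = 0.0486), and MBD3 by DESeq2 (adjusted p = 0.04). Scaled by library size only, MBD3 (edgeR adjusted p = 0.0179) and TET1 (0.0415) passed. DNMT1, the maintenance methyltransferase, averaged 171 ± 9.403 CPM in the knockout and 175 ± 16.2 CPM in WT libraries (-0.03 ± 0.08, edgeR adjusted p = 0.81). ZFP57 had no row, and ZNF445, another imprint-keeping zinc-finger gene, averaged 66.8 ± 5.67 CPM in the knockout and 65.3 ± 3.62 CPM in WT libraries (0.03 ± 0.08, edgeR adjusted p = 0.828).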

How the data were processed

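Per the labels' protocols, TRIzol RNA was depleted of ribosomal RNA and made into stranded libraries. The submitters' processing notes list Salmon 1.10.0, cutadapt 3.5, DESeq2 1.42.1, FastQC and the build GRCh38.p14 without roles; the annotation release and strand setting are not stated. The gene table deposited by the authors holds estimated counts in whole numbers, not normalized. Of its 21071 rows, 403 repeats of a gene were removed. The transcript files hold estimated counts (reads) and TPM, per the file headers. Estimated reads can be split wrongly among overlapping or similar genes.

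Genes were filtered with filterByExpr, scaled by TMM and tested for genotype with edgeR 4.0.16 (R 4.3.3), two-sided, at a Benjamini-Hochberg adjusted p of 0.05. The SE is the size of the log2 fold change divided by the root of F. The fit was first tested on simulated data, where many of the smaller changes went uncalled and some calls were false. Alternatives were DESeq2 1.42.0, limma-voom (limma 3.58.1), other scalings, filters and thresholds, a replicate block, each library left out, and gene counts rebuilt from transcripts. GENCODE 29 (GRCh38) assigned 201667 of 251955 transcripts to genes and placed 15846 of the tested genes. Between replicates the chi-square per gene was 4.37 to 22.7, above sampling noise, so no libraries were merged.

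The genes and lists were chosen with earlier results of these data known. Named are the 10 imprinted genes, listed genes of their domains, the 12 other imprinted and 5 imprint-keeping genes with the smallest adjusted p, and DNAJC12. Other named list members (IGF2R, INPP5F, DIO3OS, SNURF, OSBPL5, PPP1R9A, DNMT1, ZNF445) were picked after their values were seen. TSSC4, NAP1L4 and ZNF264, also of these domains, were not on the planned list of genes to name.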

Additional observations from a re-analysis of the deposited data

How the results depend on the processing

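All 9 genes kept their direction in the 17 other settings. MEST, IGF2 and PEG10 passed in each, with log2 fold changes of 2.78 to 2.998, -1.86 to -1.52 and -1.67 to -1.401, and PHLDA2 passed in none. CDKN1C missed the threshold with a fold minimum of 1.5 alone. That minimum left 1 rise and 2 falls among the 9 genes, 5 rises and 5 falls among other imprinted genes, 0 falls among imprint-keeping genes and 1388 calls in all. A threshold of 0.01 left 1 rise and 3 falls among the 9 genes, 0 falls among imprint-keeping genes and 2663 calls in all. Length-corrected counts gave 1 rise and 3 falls among the 9 genes, 1 rise and 0 falls among imprint-keeping genes and 2851 calls in all. Among imprint-keeping genes, falls numbered 2 by DESeq2 and 3 with library size only, with 4419 and 4493 calls in all. Rises numbered 1 by limma-voom and 1 with a filter of 1 CPM in 3 libraries, with 4346 and 4144 calls in all. With 1 library left out, the 9 genes gave 2 rises and 4 to 6 falls, other imprinted genes 7 to 11 rises and 10 to 12 falls, imprint-keeping genes 0 to 4 rises and 0 to 3 falls, and all genes 2966 to 4772 calls. The cause of these shifts was not tested. Deviations of same-numbered libraries correlated at 0.07, -0.05 and -0.09, and those of differently numbered libraries at -0.097 to 0.138. With 3 libraries per genotype, these values cannot tell whether replicate numbers pair the libraries, and the main fit used no pairing. With the replicate block there were 4565 calls, 2 rises and 5 falls among the 9 genes, 11 rises and 12 falls among other imprinted genes, and 2 falls among imprint-keeping genes; of the listed genes UBE3A (edgeR adjusted p = 0.0227), INPP5F (0.0493) and TET1 (0.00991) gained a call. Scaling by library size only moved the median gene by -0.06 (log2). Low counts limit PHLDA2, DIO3, GPR1, KCNK9 and the start groups.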

Other observations

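Genes outside the lists also changed near the imprinted genes, and those given here were chosen after their values were seen. COPG2IT1, a transcript of the COPG2 locus beside MEST, had 5.75, 3.37 and 5.04 CPM in the knockout libraries, against 0.339, 0.304 and 0.153 CPM in the WT libraries (4.11 ± 0.38, edgeR adjusted p = 1.87e-05). UBE2H, a ubiquitin-conjugating enzyme gene within 1 Mb of MEST, had 286 CPM in the knockout and 181 CPM in the WT libraries on average (0.66 ± 0.07, edgeR adjusted p = 4.20e-05). Within 1 Mb of PEG10, the G protein subunit gene GNG11 had 142 CPM in the knockout and 362 CPM in the WT libraries on average (-1.35 ± 0.12, edgeR adjusted p = 1.42e-05). Within 1 Mb of IGF2, the kinase gene BRSK2 had 9.26 CPM in the knockout and 1.54 CPM in the WT libraries on average (2.58 ± 0.21, edgeR adjusted p = 6.65e-06). Within 1 Mb of PLAGL1, the utrophin gene UTRN had 7.37 CPM in the knockout and 13.8 CPM in the WT libraries on average (-0.91 ± 0.16, edgeR adjusted p = 0.00208) and the fucosidase gene FUCA2 had 65.8 CPM in the knockout and 115 CPM in the WT libraries on average (-0.81 ± 0.08, edgeR adjusted p = 4.20e-05).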
